A study of Mus musculus with 19 samples.

Results

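A set of 7 miRNAs often described in liver tumours, miR-221, miR-222, miR-181a, miR-181b, miR-181c, miR-181d and miR-224, was followed in the livers of mice given a polycyclic aromatic hydrocarbon. They were chosen by their exact mouse names (mmu-miR-221 and so on) in the name column of the array, and all 7 were found among its 696 miRNAs. Male MutaMouse animals (transgenic strain 40.6) of 10 weeks were gavaged daily for 28 days, and their livers were collected 3 days after dosing ended. The control group received olive oil alone (0 mg/kg/day, 5 arrays). The low, middle and high dose groups received dibenz[a,h]anthracene in olive oil at 6.25 mg/kg/day (5 arrays), 12.5 mg/kg/day (4 arrays) and 25 mg/kg/day (5 arrays). Each of the 19 arrays held RNA of 1 mouse. All animals, controls included, carried the MutaMouse reporter transgene. The arrays read RNA of whole liver, a mixture of cell types, so fewer cells of a type and less RNA per cell cannot be told apart. The series asked, by its title, whether hepatic miRNAs respond to this exposure.

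A miRNA is a short RNA that guides a silencing complex to messenger RNAs, chiefly through its seed, the bases near its 5′ end that pair with the target. miR-221 and miR-222 are made from neighbouring hairpins on the X chromosome, share a seed, and repress the cell cycle inhibitors Cdkn1b and Cdkn1c. They are often higher in hepatocellular carcinoma than in normal liver. The miR-181 family has been tied to stem-like liver tumour cells and to lymphocyte development. miR-224 is another miRNA often reported as higher in liver tumours. Dibenz[a,h]anthracene binds the aryl hydrocarbon receptor and is converted into products that damage DNA.

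The mature sequences are shown because they divide the 7 miRNAs into seed groups. They are from RefSeq (GRCm38.p6), where all 7 matched by name, and are printed 5′ to 3′ with the seed, bases 2 to 8, in capitals.
mmu-miR-221: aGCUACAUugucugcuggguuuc
mmu-miR-222: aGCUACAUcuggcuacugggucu
mmu-miR-181a: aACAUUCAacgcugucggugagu
mmu-miR-181b: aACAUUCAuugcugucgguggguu
mmu-miR-181c: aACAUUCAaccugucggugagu
mmu-miR-181d: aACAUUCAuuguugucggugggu
mmu-miR-224: uAAGUCACuagugguuccguu
There were 3 different seeds. miR-221 and miR-222 shared 1 seed and their first 8 bases, and were 5 single-base edits apart over their whole length. The 4 miR-181 members shared another. miR-181a and miR-181c were only 1 edit apart. miR-181a and miR-181b differed by A9U, C10U and A21G, counted from the 5′ end with the miR-181a base first, and miR-181b was 1 base longer (24 against 23 bases). Over the bases they share, miR-181b and miR-181d differed by C12U alone. Among 1679 mature names in the RefSeq table, miR-1928 was the only other miRNA with the seed of miR-221, and it was detected on 0 of 19 arrays. No other mature name carried the miR-181 seed or the miR-224 seed. The sequences of the array probes were not used here, so how well they separate such close relatives was not tested.

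In GRCm38.p6 the mature miR-221 lies at chrX:19146307-19146329 and miR-222 at chrX:19146901-19146923, both on the minus strand, with 504 bases between their hairpins. miR-181a has copies at chr1:137966468-137966490 and chr2:38852741-38852763. miR-181b has its own copies beside them, at chr1:137966650-137966673 and chr2:38853845-38853868, and all 4 lie on the plus strand. The chromosome 2 pair falls within the annotated spans of Nr6a1, a nuclear receptor gene, and the long non-coding RNA Nr6a1os. miR-181c lies at chr8:84178924-84178945 and miR-181d at chr8:84178759-84178781, on the minus strand with 142 bases between the mature sequences. miR-224 lies at chrX:72261085-72261105 on the minus strand, within the span of Gabre, a GABA receptor subunit gene. Whether these host spans are exonic or intronic at the miRNA was not examined.

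The arrays were first compared as a whole. An array detected 155 to 209 of the 696 miRNAs, and 453 were detected on no array. The mean number detected was 200.6 ± 11.1 in controls (SD, n = 5), against 194.6 ± 15.3 (SD, n = 5), 169.5 ± 11.1 (SD, n = 4) and 169.8 ± 12.7 (SD, n = 5) in the low, middle and high dose groups. The 75th percentile signal of an array, over probes detected on all arrays, was 357 ± 111 intensity units in controls (SD, n = 5), against 301 ± 74.6 (SD, n = 5), 215 ± 60.7 (SD, n = 4) and 195 ± 37.4 (SD, n = 5) in the low, middle and high dose groups. The array signal was lower at the high dose than in controls in a two-sided exact permutation test (p = 0.0159, 0.0476 adjusted over 3 doses), and 4 of 5 arrays lay below all controls. That test did not use the slide, and slide 3 held 3 of the controls but 1 high dose array. On slide 1 the control read 219 units and the high dose arrays 218 and 226. On slide 2 they read 345 against 175 and 139, and on slide 3 the controls read 443, 288 and 491 against 219. Dimmer arrays therefore sat in the higher dose groups, and both scaled and unscaled values are given for the miRNAs that were measured. The hepatocyte miRNAs miR-122, miR-192 and miR-194 were detected on all 19 arrays, and the pancreatic miRNAs miR-216a, miR-216b and miR-217 on none. The muscle miRNAs of the same marker list were detected on some arrays, miR-1 on 6, miR-133b on 4, and miR-133a and miR-206 on 3 each.

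Detection separated the 7 miRNAs. The scanner software calls a miRNA detected when the signal of at least 1 of its probes is about 3 times its error: over all miRNAs and arrays, the highest ratio without a call was 2.9996 and the lowest with one was 3.003. miR-221 was detected on all 19 arrays. miR-181a was detected on 3 of 19 arrays. miR-222, miR-181b, miR-181c, miR-181d and miR-224 were detected on 0 of 19 arrays each, which allows a share of up to 15.8% of such arrays, for counting error only. So 1 of the 7 was detected in every liver and 5 were detected in none, controls included.

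**Figure D1:**
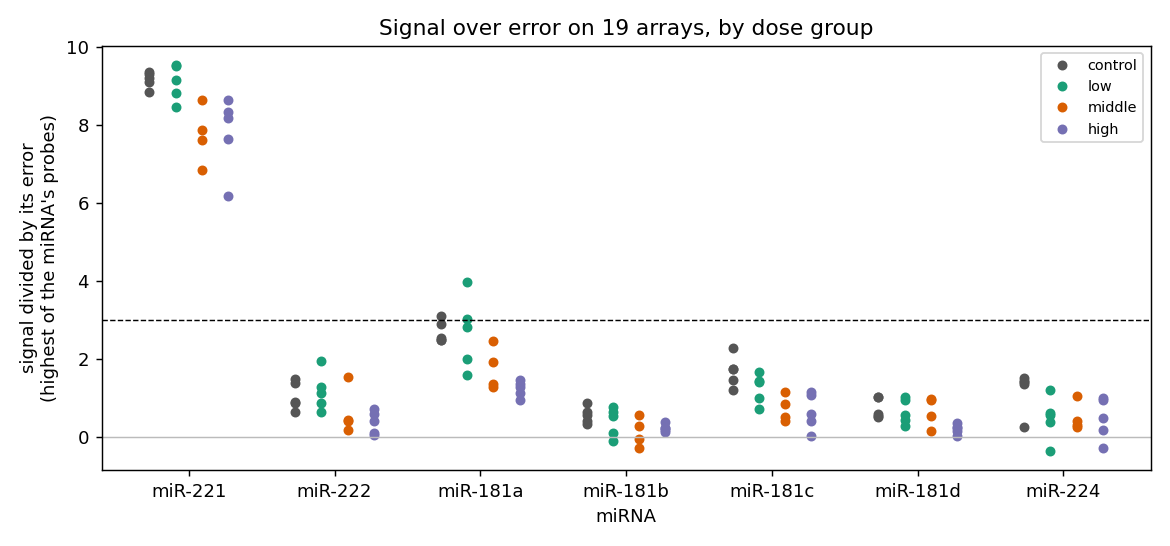
Signal divided by its error (vertical axis, no unit) for each of the 7 miRNAs, taking the highest of its probes; each point is 1 array, coloured by dose group, and the dashed line marks a ratio of 3. All miR-221 points lie between 6.17 and 9.53, 3 miR-181a points lie above the line, and no point of the other 5 miRNAs reaches it.

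miR-221 was well above background on 355 of its 380 spots, 20 on each array. All 100 spots passed in controls, 99 of 100 at the low dose, and 70 of 80 and 86 of 100 at the middle and high doses. Its signal over error was 8.83 to 9.34 in controls, 8.45 to 9.53 at the low dose, 6.84 to 8.64 at the middle dose and 6.17 to 8.64 at the high dose. The middle and high dose arrays thus gave the weaker readings of this miRNA, as they did of the array signal.

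miR-222, the cluster partner of miR-221 with the same seed, was well above background on 2 of 380 spots. Its signal over error reached 1.94 at most. Its brightest probe gave 1.69 ± 0.866 intensity units in controls (SD, n = 5), against 1.90 ± 0.907 (SD, n = 5), 1.40 ± 1.50 (SD, n = 4) and 0.572 ± 0.546 (SD, n = 5) in the low, middle and high dose groups. The medians of the negative control spots ran from -0.317 to 1.43 units over the arrays, and 0.424% of 8246 such spots were called well above background. miR-222 was thus called detected in no group, although its control and low dose means lay above the highest of those medians. A miR-222 response could not be detected at this sensitivity, and a fold change has no meaning here.

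Another 3 of the miR-181 family and miR-224 were not detected either. miR-181b was well above background on 0 of 380 spots, and its signal over error reached 0.866. miR-181c passed on 2 of 380 spots with a highest ratio of 2.28, on a control array. Its brightest probe read 2.95 ± 0.902 intensity units in controls (SD, n = 5), against 2.17 ± 0.710 (SD, n = 5), 1.56 ± 0.847 (SD, n = 4) and 1.15 ± 0.767 (SD, n = 5) in the low, middle and high dose groups. These undetected readings were lower in the groups whose array signal was lower, and the part of the array signal in them was not tested. miR-181d passed on 0 of 380 spots with a highest ratio of 1.02. miR-224, which has 4 probes on the array where the others have 2, passed on 0 of 380 spots and reached 1.51. The signal of the brightest miR-224 probe was at or below 0 on 6 of 19 arrays, leaving 13 above 0. None of these ratios came near the detected range of miR-221.

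miR-181a lay at the edge of detection. It was detected in control replicate 1 and in low dose replicates 11 and 12, with total gene signals of 3.49, 5.22 and 3.39 units. It was detected on 0 of 4 middle dose and 0 of 5 high dose arrays. Detection on 2 of 14 dosed against 1 of 5 control arrays gave p = 1.0 in Fisher's exact test, two-sided. By 75th percentile signal control replicate 1 ranked 11 of 19, and low dose replicates 11 and 12 ranked 3 and 6. Control replicate 1 passed narrowly, at a signal over error of 3.08. The part of the array signal in these detections was not tested. The second probe of miR-181a was near 0 throughout, so the detection rested on 1 probe.

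The unscaled signal of that brighter miR-181a probe was 5.30, 4.31, 5.52, 3.85 and 5.89 intensity units in the controls. It was 2.71, 7.75, 4.89, 5.79 and 3.33 units at the low dose, 2.16, 2.48, 5.23 and 5.88 units at the middle dose, and 2.27, 2.47, 2.51, 1.80 and 2.34 units at the high dose. All 5 high dose arrays lay below all controls, while the low and middle dose values overlapped the controls. The array signal was lower at the high dose as well, at 0.547 of control, and its part in these readings was not tested. Signal over error was 0.949 to 1.46 at the high dose, below detection on all 5 arrays, so no fold change is given. With 16 of 19 arrays below the detection limit, miR-181a was not among the miRNAs tested across the array.

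miR-221 was the only member that could be compared between groups. Its level is the log2 of the signal of its brightest probe over the 75th percentile of the array. The controls read -2.85, -3.12, -2.97, -3.11 and -3.30. The low dose arrays read -2.79, -2.73, -2.83, -2.98 and -3.12, and 3 of the 5 lay above all controls. The middle dose arrays read -3.14, -2.92, -3.03 and -2.92, all within the control range. The high dose arrays read -2.94, -3.17, -2.91, -3.23 and -2.89, also all within it. Every dose group overlapped the controls.

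The group means of miR-221 were -3.07 ± 0.17 in controls (SD, n = 5), against -2.89 ± 0.16 (SD, n = 5), -3.00 ± 0.11 (SD, n = 4) and -3.03 ± 0.16 (SD, n = 5) in the low, middle and high dose groups. In order of level, the low dose was highest and the controls lowest, and the arrays of each pair of neighbours in that order overlapped. With the slide as a block in limma, the low dose lay 0.17 above control on the log2 scale (SE 0.10, 95% interval -0.05 to 0.39, adjusted p = 0.561). The interval corresponds to a ratio of 0.969 to 1.31. The middle dose lay 0.04 above (SE 0.11, interval -0.19 to 0.27, adjusted p = 0.962), a ratio of 0.874 to 1.21. The high dose lay 0.02 above (SE 0.10, interval -0.21 to 0.24, adjusted p = 1.0), a ratio of 0.866 to 1.18. miR-221 passed in no comparison. The intervals still cover differences of either sign, so the miss does not show that the levels were equal.

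Over all 208 miRNAs tested, 4.33% passed at the low dose (9, with 28 at an unadjusted p under 0.05), 5.77% at the middle dose (12, with 52 unadjusted) and 2.40% at the high dose (5, with 53 unadjusted), all higher than control under the main scaling. The direction of the calls turned under other scalings. At the middle dose 1 of 36 calls was higher with the all-probe percentile, 1 of 9 with quantile normalization and 1 of 11 with the total gene signal. At the high dose 1 of 70 calls was higher without scaling, 1 of 9 with quantile normalization and 2 of 8 with the total gene signal. The F test over the dose groups called 0.962% of them, as did a linear trend over dose. Of the 7 members, 1 was tested and 0 passed in any of these 5 comparisons. In the F test miR-221 had an adjusted p of 0.565, and its trend was -0.0016 log2 units per mg/kg/day (adjusted p = 0.926). The median differences of all tested miRNAs were 0.07, 0.11 and 0.05 at the 3 doses, from low to high. Relative to that median, miR-221 differed by 0.10 at the low dose, by -0.07 at the middle and by -0.04 at the high. Its residual SD was 0.159, against a median of 0.145 over the tested miRNAs, which include 23 at the floor on every array. Each array held another mouse, so this SD covers differences between animals as well as measurement error.

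**Figure D2:**
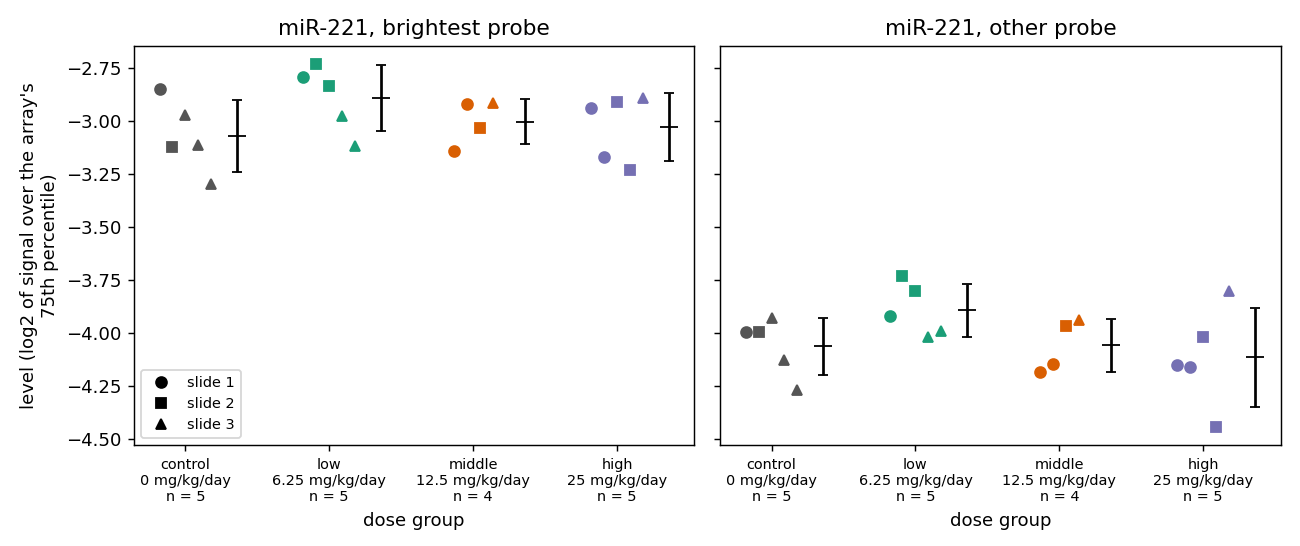
Level of miR-221 (vertical axis, log2 of signal over the 75th percentile of the array) by dose group for its brightest probe (left) and its other probe (right); each symbol is 1 array, its shape the slide, and bars are mean ± SD. On the left every dose group overlaps the control range of -3.30 to -2.85; the probes are not compared with each other in level.

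The second probe of miR-221 read lower and gave a similar picture. Its group means were -4.06 ± 0.14 in controls (SD, n = 5), against -3.89 ± 0.12 (SD, n = 5), -4.06 ± 0.12 (SD, n = 4) and -4.12 ± 0.23 (SD, n = 5) in the low, middle and high dose groups. Over the 19 arrays the 2 probes correlated with r = 0.78 and rho = 0.75, a description of readings that share their arrays and scaling. On high dose replicate 16, the dimmest array, 0% of the second probe's spots were well above background. With this probe in place of the brightest, chosen after the data were seen, the high dose lay at -0.04 against control, on the other side of 0.

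Within slides, the low dose mean of miR-221 was above the control mean on all 3 slides, by 0.06, 0.34 and 0.08 on the log2 scale. The middle dose was at -0.18, 0.09 and 0.21, and the high dose at -0.21, 0.05 and 0.24. Slides 1 and 2 each held 1 control array, so these differences have no spread of their own. The control on slide 1 was the highest control of all.

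Without scaling, miR-221 fell with the arrays. Its total gene signal, the scanner software's own value per miRNA, was 42.5 ± 11.7 intensity units in controls (SD, n = 5), against 42.0 ± 12.6 (SD, n = 5), 27.6 ± 10.3 (SD, n = 4) and 24.2 ± 6.05 (SD, n = 5) in the low, middle and high dose groups. The high dose was 0.568 of control (exact permutation test, two-sided, p = 0.0159, 0.0476 adjusted over 3 doses), beside 0.547 for the array signal. At the high dose 4 of 5 arrays lay below all controls. This test did not use the slide either. On slide 1 the control read 29.1 units and the high dose arrays 27.3 and 25.3. On slide 2 they read 42.0 against 22.9 and 14.6, and on slide 3 the controls read 57.7, 33.4 and 50.2 against 30.7. The middle dose was 0.650 of control (exact p = 0.0952) and the low dose 0.989 (exact p = 0.960). Leaving out 1 array at a time, chosen after the data were seen, gave middle dose ratios of 0.533 to 0.714 (exact p = 0.0357 to 0.214, unadjusted). The ratio of 0.533 came without middle dose replicate 20, the only middle dose array on slide 3.

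**Figure D3:**
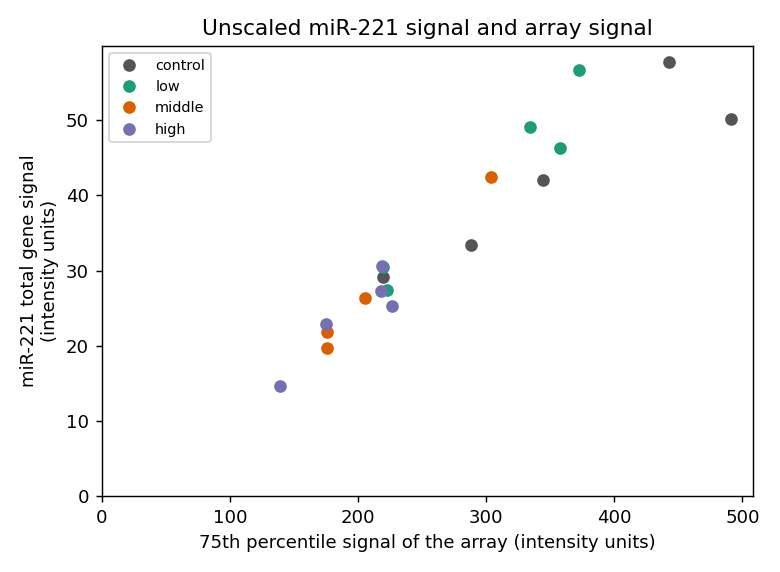
Unscaled total gene signal of miR-221 (vertical axis, intensity units) against the 75th percentile signal of the array (horizontal axis, intensity units); each point is 1 array, coloured by dose group. Arrays with a low array signal have a low miR-221 signal, and the high dose means are 24.2 and 195 units against 42.5 and 357 in controls.

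The direction at the middle and high doses depended on the scaling. Relative to control, miR-221 was lower at both doses when the percentile was taken over all probes (-0.45 and -0.25), with quantile normalization (-0.25 and -0.26), with no scaling (-0.53 and -0.69), with the total gene signal (-0.12 and -0.06) and in the deposited value table (-0.10 and -0.12). With normexp background correction it was higher (0.50 and 0.23), where the median of all tested miRNAs also rose, to 0.59 and 0.31. Set against that median, miR-221 was lower at the middle dose in all 7 of these scalings, by 0.03 to 0.30, and at the high dose by 0.02 to 0.26. Under the main scaling the median includes 23 miRNAs at the floor on every array, which cannot differ between groups. With quantile normalization it was 0 at both doses. The 7 scalings read the same arrays, so they are not separate tests. None of these dose comparisons passed in limma with Benjamini-Hochberg adjustment, with adjusted p from 0.0602 upward at the high dose. The linear trend without scaling was the 1 test that did, at -0.03 log2 units per mg/kg/day (adjusted p = 0.0240), when 105 of the 208 tested miRNAs passed.

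**Figure D4:**
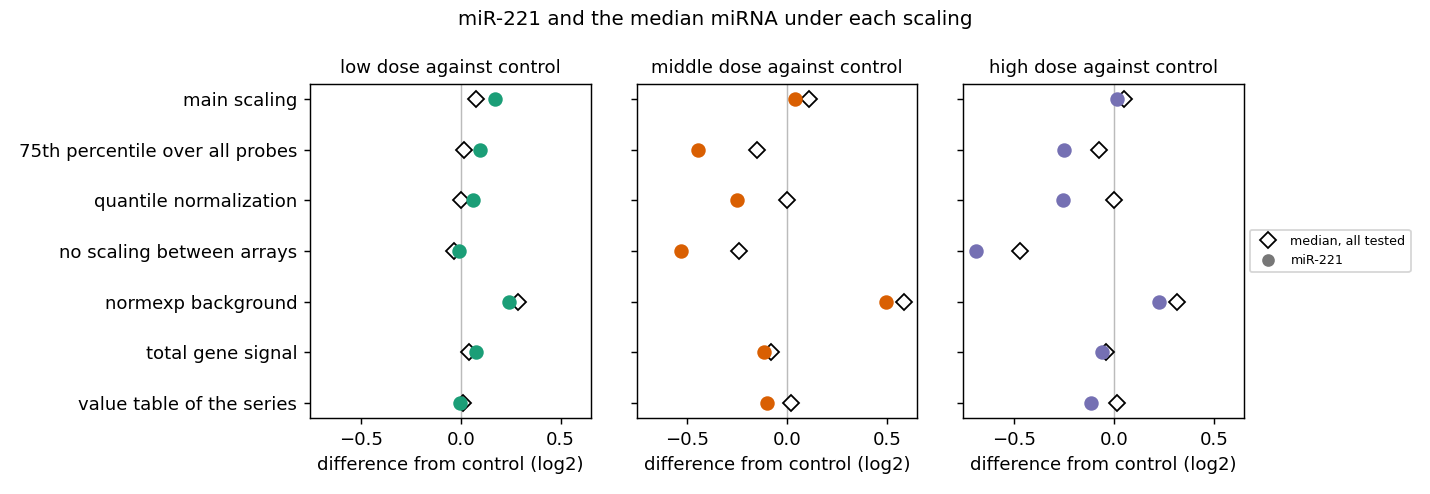
Difference from control on the log2 scale (horizontal axis) for miR-221 (filled circles) and for the median of all tested miRNAs (open diamonds), by scaling or value source (vertical axis) and dose (panels). At the middle and high doses miR-221 moves from 0.50 and 0.23 with normexp to -0.53 and -0.69 without scaling, and it lies left of the diamond in every row of those panels.

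The deposited value table gave the same division of the members. In it miR-221 ran from 5.67 to 5.99 on the log2 scale, with means of 5.89 ± 0.07 in controls (SD, n = 5), against 5.89 ± 0.09 (SD, n = 5), 5.78 ± 0.05 (SD, n = 4) and 5.77 ± 0.07 (SD, n = 5) in the low, middle and high dose groups. The other 6 members lay between 4.94 and 5.18 on every array, around column medians of 5.04 to 5.06. Of these, miR-181a lay at 5.06 to 5.18, with 5.16, 5.18 and 5.12 on control replicate 1 and low dose replicates 11 and 12, where it was detected, and 5.17 on middle dose replicate 20, where it was not.

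The miRNAs whose levels ran most like miR-221 over the 19 arrays were sought by Pearson correlation among 184 other tested miRNAs with varying levels. They were miR-142-5p (r = 0.69, rho = 0.66) and miR-142-3p (r = 0.60, rho = 0.66), made in blood cells, and miR-126-3p (r = 0.58, rho = 0.67), made in endothelium. Of these, miR-142-5p was near the floor, with a mean level of -4.36 against a floor of -4.79, and was detected on 17 of 19 arrays. The median r over all 184 was 0.05. The arrays, the scaling and the slides are shared by all of these values, so the correlations are descriptions. After group and slide means were taken out they were 0.70, 0.70 and 0.44. At the low dose miR-126-3p was called, 0.29 above control (SE 0.07, limma adjusted p = 0.0268), where miR-221 was not. It was above control at that dose under all 7 scalings, and called under the main one and in the deposited value table.

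Markers of those cells were summed by dose group. Summed over 6 leukocyte miRNAs, the level ran from 0.17 to 0.64 in controls, 0.64 to 0.72 at the low dose, 0.48 to 0.81 at the middle dose and 0.37 to 0.84 at the high dose on the log2 scale. Of these 6, 4 were detected on any array, 1 (miR-223, a myeloid miRNA) was called higher at each dose while the other 3 were called in no comparison, and miR-150 and miR-155, found in lymphocytes and activated immune cells, were detected on 0 of 19 arrays. miR-223 and miR-155 also stand in the tumour lists described further on. The level summed over 2 endothelial miRNAs ran from 1.06 to 1.52 in controls, 1.58 to 1.70 at the low dose, 1.42 to 1.59 at the middle dose and 1.34 to 1.53 at the high dose. Mean levels were 1.45 for miR-126-3p and -4.77 for miR-126-5p, so this sum chiefly repeats miR-126-3p. The largest part of the leukocyte sum was miR-142-3p (mean level -0.22, with miR-223 next at -1.71). That miRNA was picked above for its likeness to miR-221, so the leukocyte sum is not separate from that pick. The part of the leukocyte and endothelial markers in the level of miR-221 was not tested. Of the 3 hepatocyte miRNAs 0 were called in any comparison. For stellate or smooth muscle, erythroid, bile duct, and pancreatic or muscle cells, 4, 2, 5 and 2 marker miRNAs were tested and 0 were called in any comparison. Over all tested miRNAs 4.33%, 5.77% and 2.40% were called at the low, middle and high doses, so 0 calls among so few markers say little. These counts are of the main scaling. Without scaling miR-223 lay at -0.09 and -0.32 at the middle and high doses, while in the value table it was called higher at both.

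The RNA strands made beside the members were also looked for. Of 14 names listed for opposite strands and locus partners, 2 were on the array, miR-181a-1* and miR-181a-2*, and both were detected on 0 of 19 arrays. miR-452-5p, the neighbour of miR-224 and named here after its value was seen, was detected on 0 of 19 arrays. So no strand partner on the array gave a level that could stand in for the undetected members.

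Other miRNAs often higher in liver tumours were measured on the same arrays. Of 16 listed, 11 were tested, and 2, 3 and 1 rose at the low, middle and high doses, with 0 lower. Over all tested miRNAs 4.33%, 5.77% and 2.40% were called at these doses, all of them higher under this scaling. The list was chosen with earlier results of these data known. miR-34a, a direct target of the tumour suppressor p53, rose at each dose, by 1.52, 3.11 and 3.49 on the log2 scale (limma adjusted p = 0.0165, 3.6e-05 and 4.9e-06). It was also called in the F test and in the trend, where miR-221 was not. At the middle and high doses it was called under all 7 scalings, and at the low dose under the main one alone. From the miR-17 family of clusters, which promote proliferation, miR-20a was called at the low dose (0.27, adjusted p = 0.0380), and miR-92a (0.34, adjusted p = 0.0320) and miR-93 (0.24, adjusted p = 0.0339) at the middle dose. These rises were called under the main scaling alone, and without scaling miR-93 was called lower at the high dose (-0.62, adjusted p = 0.0421). At the middle dose miR-92a and miR-93 lay below control with the all-probe percentile (-0.15 and -0.25) and without scaling (-0.23 and -0.34), and miR-93 in the value table too (-0.04). miR-21, the brightest of the list and a growth-promoting miRNA, had differences of -0.08, 0.05 and -0.01 and was not called here, but fell at the high dose without scaling (-0.72, adjusted p = 0.0128). The signs of miR-21 at the middle and high doses also varied with the scaling. The median differences of the list were 0.12, 0.24 and 0.10, against 0.07, 0.11 and 0.05 for all tested miRNAs.

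miRNAs often lower in liver tumours were the counterpart. Of 28 listed, 26 were tested, and 2 rose at each dose, with 0 lower. Over all tested miRNAs 4.33%, 5.77% and 2.40% were called, also all higher. The 2 were miR-139-5p, higher by 0.50, 0.51 and 0.47 (limma adjusted p = 0.0138, 0.0110 and 0.0111), and miR-223, higher by 0.37, 0.48 and 0.39 (limma adjusted p = 0.0382, 0.0198 and 0.0482). Both are known as reduced in hepatocellular carcinoma, and here they were higher than in controls under the main scaling. Without scaling miR-139-5p read -0.06 and -0.23 against control at the middle and high doses, and miR-223 read -0.09 and -0.32, and miR-223 also lay at -0.01 at the middle dose with the all-probe percentile. Outside the main scaling, miR-139-5p was called at the high dose with the total gene signal, and miR-223 at the middle and high doses in the value table. The bright members miR-122, let-7f, let-7a and miR-29a were detected on all arrays and not called. The median differences of the list were 0.14, 0.15 and 0.01.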

How the data were processed

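Liver RNA (100 ng, Cyanine 3-pCp labelled, per the labels' protocols) was read on 1-colour Agilent miRNA arrays. Per the file headers, Agilent Feature Extraction 10.7.3.1 gave background-subtracted intensity values per spot, with no scaling between arrays. The value table the authors deposited is on a log2 scale. How it was made is not given in the sources.

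Control and outlier spots were left out, spots were averaged per probe, and probe signals were divided by the 75th percentile of their array, taken over 220 probes detected on all arrays. Values below a floor of -4.79 (log2) were raised to it, and the brightest probe stood for a miRNA. Of 696 miRNAs, 208 detected on at least 4 arrays were tested, including 23 at the floor on every array. limma 3.58.1 in R 4.3.3 (lmFit, eBayes) used the group and the slide, 3 slides each holding all 4 groups, with 1 estimate of the spread and Benjamini-Hochberg adjustment within each comparison (threshold 0.05). Other values were compared with exact permutation tests, two-sided (SciPy), which did not use the slide. The procedure was tested on simulated data. No spot was saturated (0). The number of arrays limits the precision. The labels give 5 animals per dose, and 4 arrays of the middle dose were analysed here.

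All 7 members were named, with the 3 miRNAs most like any member detected on at least 4 arrays, all strand partners on the array, and the called members and up to 4 brightest tested of the tumour lists. Of the brightest, miR-92a and miR-20a were called, and miR-151-5p (differences of 0.08, 0.12 and 0.06) was not. Members and lists were chosen with earlier results of these data known. The planned correlation between cluster partners was not run, because no pair was detected on all arrays. Normexp (offset 50) used the median spot signal.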

Additional observations from a re-analysis of the deposited data

Results flagged for a closer look

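There were 2 readings of control replicate 1 that stood apart from the other 4 controls, by a gap larger than Dixon's 95% critical value for 5 samples (0.710). Over the 28 groups of values looked at, chance flags about 1 in 20. Its scaled miR-181a signal was 24.1 thousandths of the 75th percentile signal, where the other controls lay between 12.0 and 13.4. It detected 181 miRNAs, where the other controls detected 204 to 209.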

How the results depend on the processing

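The count of 0 members called at each dose, in the F test and in the trend held under all alternatives run, except that the trend without scaling called 1, miR-221 (-0.03). Among dose differences of miR-221, none was called under any alternative, and signs changed as follows. At the middle and high doses it was -0.45 and -0.25 under the all-probe percentile, -0.25 and -0.26 after quantile normalization, -0.53 and -0.69 if unscaled, -0.12 and -0.058 with total gene signal, and -0.10 and -0.12 in the value table. With a floor 4 times higher it was -0.0011 and -0.0024. Only low dose replicate 11 then lay above the floor, so this alternative could not show a change of miR-221 in either direction. At the low dose miR-221 was -0.0097 without scaling and -0.0041 in the value table, and its trend was 0.0073 with normexp. Its other probe, chosen after the data were seen, gave -0.044 at the high dose. Leaving out 1 array at a time, miR-221 ran from 0.12 to 0.23 at the low dose, -0.035 to 0.12 at the middle dose, -0.069 to 0.087 at the high dose, and -0.0048 to 0.00095 in the trend.

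The number of all miRNAs called moved more. At the low dose (9) it was 0 with all-probe percentile, quantile, no scaling, normexp and total gene signal, 3 without the slide block and 2 in the value table. At the middle dose (12, all higher) it was 36 with the all-probe percentile (1 higher), 2 without scaling (1 higher), 1 with normexp and 7 in the value table (3 higher), and the near-equal counts of 9 with quantile and 11 with total gene signal held 1 higher each. At the high dose (5, all higher) all-probe percentile, no scaling, normexp and the value table gave 1, 70, 1 and 14 (1, 1, 1 and 11 higher), quantile gave 9 (1 higher), total gene signal 8 (2 higher), the higher floor 2, testing only miRNAs detected on all 19 arrays 12 (11 higher), and no slide block 19 (all higher). In the F test (2) the count was 6, 6, 9, 1 and 8 with all-probe percentile, quantile, no scaling, normexp and total gene signal, 4 on all-array miRNAs and 9 without the slide block. In the trend (2, both higher) it was 1, 10, 105 and 1 (1, 3, 1 and 1 higher) with all-probe percentile, quantile, no scaling and normexp, 1 with the higher floor, 13 on all-array miRNAs (11 higher), 16 without the slide block (14 higher) and 20 in the value table (16 higher). Leaving out 1 array gave 0 to 13, 2 to 36 and 1 to 23 calls at the low, middle and high doses, 1 to 11 in the F test and 2 to 17 in the trend. The lowest low dose count came without control replicate 10, and the highest middle and high dose counts without control replicate 1. The cause of these shifts was not tested. With no filter, the 196 miRNAs above the floor on any array could be tested, and 1 of the 7 members was among them.

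For the unscaled total gene signal of miR-221, leaving out 1 array at a time, a check chosen after the data were seen, gave ratios of 0.902 to 1.09 at the low dose, 0.533 to 0.714 at the middle dose and 0.527 to 0.625 at the high dose (exact permutation test, highest p = 0.0317 at the high dose). No paired analysis was possible because each replicate number belonged to 1 mouse and no groups shared numbers. Signal over background limits miR-222, the miR-181 family and miR-224, which were at or near the background of the arrays.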
